A study of Mus musculus with 30 samples.

Results

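The genes described here encode the proteins of the cytoplasmic ribosome in mouse. They were taken as the protein-coding genes whose symbol begins with Rpl or Rps and a number, together with Rplp0, Rplp1, Rplp2 and Rpsa. Rps6 kinase genes, symbols ending in the paralog letter l and genes on chromosome 14 were left out. Of 341 features whose symbol matched, 239 were annotated pseudogenes and 102 were protein-coding. From the latter, 10 kinase genes, 5 genes ending in l and 3 genes on chromosome 14 were removed, which left 84 members of 41388 features in the tables. Among the 84, 75 encode recognised subunits, 30 of the small and 45 of the large subunit, and are called core members below. The other 9 are Rpl22l1, Rpl7l1, Rps19bp1 (a gene whose symbol names an Rps19 binding protein), Rps27rt and 5 features with a ps suffix that the annotation nevertheless lists as protein-coding.

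Each ribosome holds a single copy of nearly every one of these proteins, so cells make them in matched amounts. Many of their mRNAs start with a C followed by a run of pyrimidines, the 5′ terminal oligopyrimidine (TOP) motif, through which growth signalling controls their translation. Mammalian genomes also hold many processed pseudogene copies of them, because their short and abundant mRNAs were often reverse transcribed in the germ line. In liver, ribosome production is known to follow feeding, growth and regeneration.

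RNA-seq was available from 20 mouse libraries, each made from pooled RNA of 3 to 4 mice. Hepatocytes came from mice 12 weeks old, freed with collagenase and kept overnight on collagen, with 3 pools labelled A1cf_Tg/+ (carrying an A1cf transgene, called labelled Tg here) and 3 pools of wild-type C57BL/6J (6J). Whole livers came from mice 12 months old. One liver study held 4 pools labelled A1cf_Tg/+ and 4 of 6J, and another held 3 pools of A1cf -/- (KO) and 3 of wild-type C57BL/6NJ (6NJ). A1CF is an RNA-binding protein known as a cofactor of apolipoprotein B mRNA editing. A further 10 CLIP-seq libraries, which hold RNA crosslinked to precipitated A1CF, came from hepatocytes labelled Tg. The promoter of the transgene is not given in the sources used here, nor is it stated whether any mouse gave RNA to more than 1 pool, so p-values measure the spread between these pools.

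The RNA libraries held 17044839 to 37211328 counts. A1cf itself stood at 20.1 to 28.9 CPM (counts scaled to a fixed library total) in the KO livers and 199 to 237 in 6NJ. It was not raised with the transgenic label. In hepatocytes the groups overlapped, at 7.36 to 10.5 CPM in pools labelled Tg against 6.46 to 11.0 in wild type. In livers every pool labelled Tg was below every 6J pool, at 156 to 174 CPM against 216 to 279. All 6 hepatocyte markers (Alb, Apoa1, Ttr, Serpina1c, Cyp2e1 and Cps1) were present in every library. Summed skeletal muscle markers reached 1675 CPM in 6J liver pool 2 and 82.4 and 79.2 in KO liver pools 1 and 3, against at most 2.62 in the other livers of the Tg study. No pair of libraries was identical.

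Sequences matter for these genes because a read that lies in a stretch common to several genes cannot be assigned to 1 of them. The share of 50-base windows of each member's principal transcript that also occur in any other annotated gene (GENCODE M21, build GRCm38) was therefore computed. Among the core members it was 7.86% for Rpl8 and reached 98.7% for Rps27. The first 60 coding bases of 4 members are shown, chosen because their values below are the most unlike, with capitals for bases inside a 50-base window found in another gene.
Rps27 (chr3:90212725-90213615, minus strand): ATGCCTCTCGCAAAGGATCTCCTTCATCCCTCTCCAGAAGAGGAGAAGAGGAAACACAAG
Rps2 (chr17:24718116-24721929, plus strand): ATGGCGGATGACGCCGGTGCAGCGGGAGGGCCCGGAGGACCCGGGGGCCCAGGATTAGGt
Rpl26 (chr11:68901583-68906989, plus strand): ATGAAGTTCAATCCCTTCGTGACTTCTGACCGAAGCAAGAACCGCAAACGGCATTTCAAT
Rpl8 (chr15:76904071-76906318, plus strand): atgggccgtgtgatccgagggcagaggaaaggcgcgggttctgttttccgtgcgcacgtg
All 60 bases of Rps27 and Rpl26 and 59 of Rps2 lay in shared windows, and none of Rpl8 did. Over the whole transcript, Rps2 shared windows with 71 other annotated genes, Rpl26 with 12, Rps27 with 9 and Rpl8 with 1.

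Start sites were compared as well, since the TOP motif is the feature these mRNAs are known for. RefSeq start sites (GRCm38.p6) were found for 55 core members. A C at the first transcribed base, opening an unbroken run of at least 5 C or T bases on the transcribed strand, was present in 11 of the 55 (20%) and in 361 of 16300 protein-coding genes (2.215%). It was absent at the annotated start of all 68 mitochondrial ribosomal protein genes and all 32 proteasome subunit genes with a start site. Translation factors of the TOP class had it in 4 of 18 (22.2%), and ribosomal protein genes outside the members in 2 of 7 (28.6%). Respiratory chain and ATP synthase genes had it in 3 of 62 (4.84%). The motif was thus not particular to the members. Examples are printed with 10 bases before the start and 20 after it, and with the pyrimidine run in capitals.
Rpl14 (chr9:120571507-120571536, plus strand): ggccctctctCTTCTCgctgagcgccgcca
Rpl28 (chr7:4792955-4792984, plus strand): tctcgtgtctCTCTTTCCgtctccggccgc
Rpl35 (chr2:39005112-39005141, minus strand): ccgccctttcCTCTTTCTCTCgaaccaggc
Rpl38 (chr11:114668570-114668599, plus strand): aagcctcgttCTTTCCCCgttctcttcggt
The run was 6 bases long in Rpl14, 8 in Rpl28 and Rpl38, and 11 in Rpl35.

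The 84 genes together took 0.216% to 0.306% of all counts in the livers of the Tg study, but 0.896% to 1.06% in the livers of the KO study. In hepatocytes the share was 0.983%, 0.927% and 0.747% in the pools labelled Tg and 0.941%, 0.708% and 0.859% in wild type. Livers labelled Tg held 0.306%, 0.261%, 0.281% and 0.248%, and 6J livers 0.216%, 0.242%, 0.259% and 0.266%. KO livers held 0.939%, 0.982% and 1.00%, and 6NJ livers 1.06%, 1.03% and 0.896%. The 2 genotypes of each study overlapped, whereas every liver of the KO study was above every liver of the Tg study. Adding annotated pseudogenes and the other ribosomal protein genes raised the 6J mean only from 0.246% ± 0.0220 (SD, n = 4) to 0.259%.

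**Figure D1:**
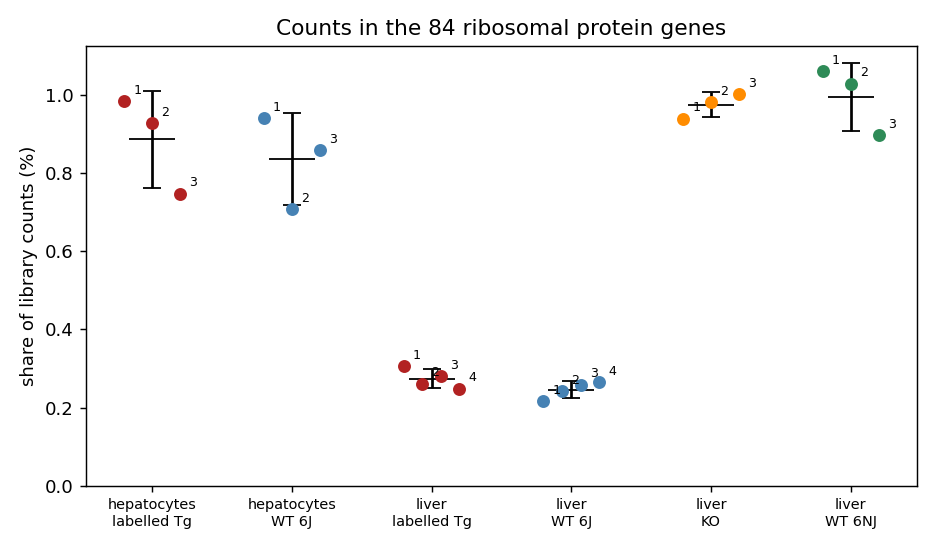
Share of each library's counts (vertical axis, %) in the 84 ribosomal protein genes, for the 6 RNA groups (horizontal axis). Numbered points are pools, and bars give the mean and SD. The 8 livers of the Tg study lie between 0.216% and 0.306%, and the 6 livers of the KO study between 0.896% and 1.06%.

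Levels were compared between genes by the deposited RPKM (CPM per kilobase of the deposited gene length), which takes gene length into account. In the livers of the KO study nearly all core members were abundant. Their median RPKM was 80.6 in 6NJ and 78.1 in KO, and a single core member, Rpl24, was under 5 RPKM in each group. In the Tg study the median was 6.36 in 6J and 6.52 in livers labelled Tg, and 37 and 35 of the 75 core members were under 5 RPKM. Hepatocytes were between, with medians of 22.4 in wild type and 26.4 in pools labelled Tg and 17 and 18 members under 5 RPKM.

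The members that stood near 0 in the Tg study included core members of the small and of the large subunit. Rps27, a zinc-finger protein of the small subunit, was at 0.670, 1.24, 1.51 and 1.84 RPKM in 6J livers and at 324, 325 and 295 in 6NJ livers. Rps6, the small-subunit protein phosphorylated by S6 kinase, was at 0.431, 0.573, 0.487 and 0.518 RPKM in 6J and at 84.1, 81.6 and 89.9 in 6NJ. Rpsa, a small-subunit protein also known as the laminin receptor, was at 0.551, 0.722, 0.652 and 0.725 RPKM in 6J and at 134, 145 and 142 in 6NJ. For all 3 genes the lowest 6NJ pool was over 100-fold above the highest 6J pool. The same held in direction for Rpl5 and Rpl11, the large-subunit proteins that carry 5S rRNA and bind Mdm2, which had group means of 0.583 and 0.629 RPKM in 6J and 31.2 and 43.8 in 6NJ.

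Other subunits were alike in both studies. Rpl8, a large-subunit protein close to the peptidyl transferase centre, was at 235, 251, 283 and 291 RPKM in 6J and at 267, 277 and 226 in 6NJ. The pools of the 2 substrains overlapped. Rps3, a small-subunit protein at the mRNA entry, was at 27.0, 33.5, 35.6 and 37.3 RPKM in 6J and at 26.6, 25.5 and 24.9 in 6NJ, so every 6NJ pool was below every 6J pool.

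The ratio of the 6NJ mean to the 6J mean was 4 or more for 48 core members, 100 or more for 10, and under 1 for 4. Its median was 10.6 over the 74 core members whose group means summed to at least 2 CPM, with quartiles of 2.88 and 47.4. For all 12099 protein-coding genes with that sum the median ratio was 0.950, with quartiles of 0.818 and 1.14, and 2.29% of them were at 4 or more. Mitochondrial ribosomal protein genes had a median ratio of 1.03 (76 genes), ribosome biogenesis factors 1.02 (40 genes), proteasome subunits 0.929 (37 genes) and translation factors of the TOP class 1.64 (22 genes). No test was made, since substrain and sequencing study cannot be told apart between these livers.

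The ratio followed the share of windows common to other genes. Core members with under 10% shared windows (4 genes, among them Rps3, Rps20 and Rpl8) had a median 6NJ to 6J ratio of 0.934, and with 10% to 50% the median was 3.58 (25 genes). With 50% to 90% it was 19.2 (42 genes), and at 90% or more it was 95.2 (4 genes). Across the 75 core members, Spearman's rho between the shared percentage and RPKM was -0.582 in 6J, -0.581 in livers labelled Tg, -0.557 in wild-type and -0.549 in labelled Tg hepatocytes. It was -0.071 in KO and -0.064 in 6NJ livers. These are descriptions across genes that share their libraries, and genes are not independent replicates. The pattern was not complete, as Rplp1, an acidic stalk protein, had 60% shared windows and still 288 RPKM in 6J, while Rps29, a small zinc-binding protein, had 35.8% and 0.774 RPKM. How reads with several matching places were handled in each study is not given in the sources used here, and its part in the result was not tested.

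**Figure D2:**
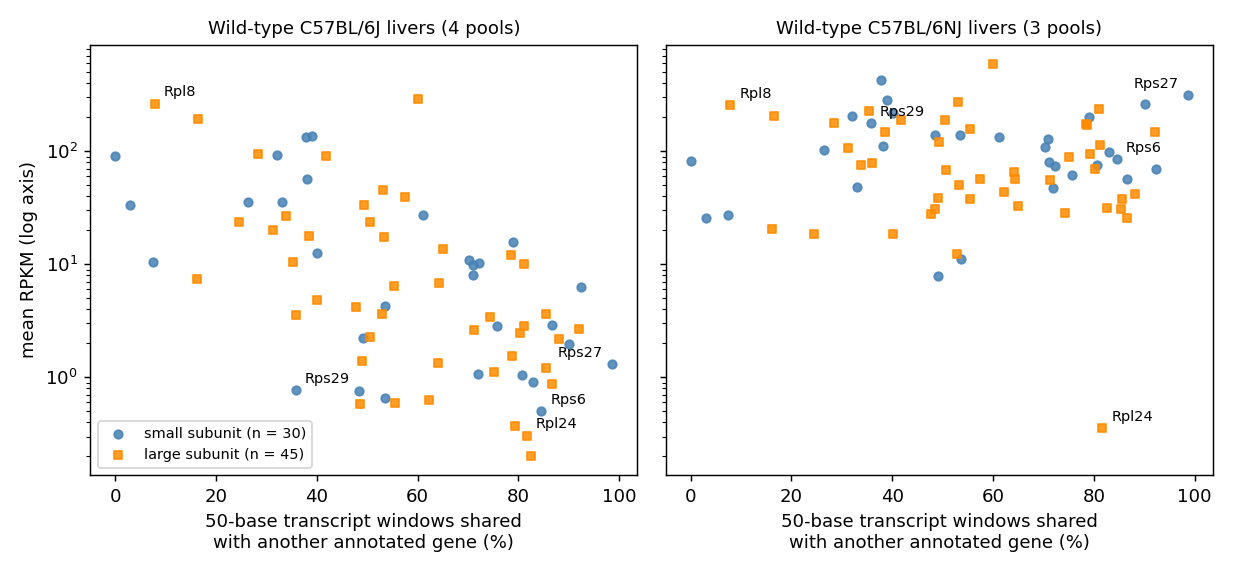
Mean RPKM (vertical log axis) of the 75 core members against the percentage of 50-base transcript windows found in another annotated gene (horizontal axis), in wild-type livers of the 2 studies. In 6J livers the genes with many shared windows lie low, with Rps27 at 1.32 RPKM, and in 6NJ livers Rps27 is at 315 RPKM and no such slope is seen. Rpl24 is near 0 in both.

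The order of members by level differed between the studies. By mean RPKM over all 20 libraries the highest were Rplp1 (592 RPKM), Rpl8, Rps26 and Rpl4, a large-subunit protein of the exit tunnel. In 6NJ livers, Rplp1 led with 591 ± 86.8 RPKM (SD, n = 3), followed by Rps26 with 432 and Rps27 with 315. In 6J livers Rplp1 had 288 ± 45.7 (n = 4) and Rpl8 had 265, whose pools overlapped. The stalk proteins Rplp0 and Rplp2 had means of 91.3 and 13.6 RPKM in 6J and 189 and 33.0 in 6NJ. Rpl41, the smallest ribosomal protein, had 45.5 and 275 RPKM. Rps19, the gene most often mutated in Diamond-Blackfan anaemia, had 4.27 and 11.2. Rps27a, made as a fusion with ubiquitin, had 1.07 and 47.1. Rpl3, which lies at the peptidyl transferase centre, had 3.67 and 37.5, and Rpl10, which joins the large subunit last, had 2.66 and 147. Rpl22 was the other way, at 23.5 in 6J and 18.6 in 6NJ.

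The 4 lowest members were Rps12-ps3, Rpl10-ps3, Rpl9-ps1 and Rpl36-ps4. None of them reached 1 RPKM in any group mean, and Rpl36-ps4 had no count in any library. Between 1 and 6 of the 84 members had no count in a given library. Rpl24, a core member of the large subunit, reached at most 0.513 RPKM in any library of both wild-type liver groups, and 47.0% of its exon bases overlapped other annotated features.

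Within the livers of the Tg study, 3 members changed level sharply from pool to pool. Rps2, which lies at the mRNA entry of the small subunit, was at 1.77, 62.8, 47.6 and 2.82 CPM in 6J pools 1 to 4 and at 50.0, 37.3, 77.0 and 35.2 CPM in pools labelled Tg. Pools 1 and 4 of 6J were low, and the other 6 pools lay between 35.2 and 77.0. Rpl26, a large-subunit protein known for binding p53 mRNA, was at 0.513, 13.2, 0.827 and 0.587 CPM in 6J and at 0.819, 1.26, 13.1 and 14.3 CPM in pools labelled Tg. A single 6J pool and 2 pools labelled Tg were high. Rps18, a head protein of the small subunit, was at 2.17, 13.4, 10.0 and 3.40 CPM in 6J, low in the same pools 1 and 4 as Rps2.

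The high pools rested on ample counts, while the low pools of Rpl26 held few. Rps2 had 31 and 48 counts in the low 6J pools and 1590 and 864 in the high ones, and Rpl26 had 9, 15 and 10 counts against 333. With 0.5 added to each count, the highest pool was 35.0-fold above the lowest for Rps2 in 6J, 24.3-fold for Rpl26 in 6J, 16.9-fold for Rpl26 in pools labelled Tg and 6.11-fold for Rps18 in 6J. Counting members with a mean of at least 20 counts, 3 of 69 spanned 4-fold or more in 6J livers (4.35%, against 4.77% of all such genes), and 1 of 70 did in livers labelled Tg (1.43% against 5.25%). None of the members did in the other 4 groups. The median SD of log2 CPM of members was 0.20 in 6J, as against 0.21 for all genes, so most members varied as other genes did. Muscle markers summed to 1675 CPM in 6J pool 2, and to 2.10 CPM in pool 3, where Rps2 and Rps18 were also high.

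**Figure D3:**
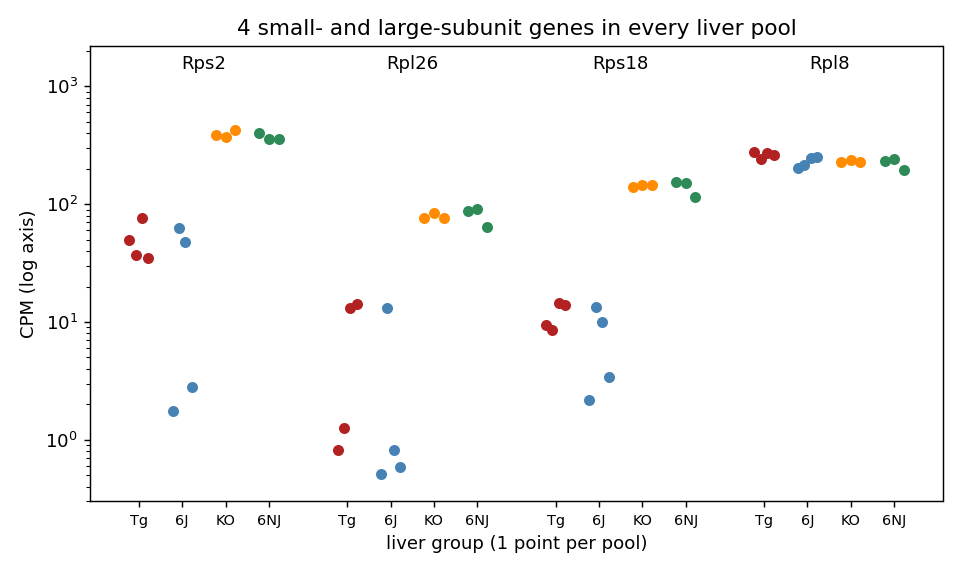
CPM (vertical log axis) of Rps2, Rpl26, Rps18 and Rpl8 in each liver pool (points), by group (horizontal axis: labelled Tg, 6J, KO, 6NJ). Rps2, Rpl26 and Rps18 separate into high and low pools in 6J, while Rpl8 stays between 194 and 274 CPM in all 14 livers.

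Plated wild-type hepatocytes held more ribosomal protein mRNA than wild-type 6J liver for nearly every member that could be tested. Of 77 members tested, 69 were called higher and 0 lower by edgeR's quasi-likelihood test (Benjamini-Hochberg adjusted p below 0.05 over all genes tested), and all 77 estimates were above 0. Their median log2 difference was 1.29, against -0.04 for all genes tested. The background was high, as 72.0% of all genes were called, 35.6% upward. Every hepatocyte pool was above every liver pool for 70 members, against 35.3% of all genes, and 71.0% of all genes did not overlap. Of the small-subunit genes 27 of 30 rose (median 1.51), and of the large-subunit genes 39 of 44 did (median 1.24).

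CPM of single genes is scaled by TMM here and in the tested comparisons that follow, but that of summed markers and flagged values is not. Among genes with few shared windows, Rps20, a small-subunit protein, was at 186, 125 and 160 CPM in hepatocytes and at 40.0, 48.2, 51.5 and 50.4 CPM in liver. The groups did not overlap, and the log2 difference was 1.72 ± 0.16 (SE; edgeR adjusted p = 1.25e-05). All 5 members tested with under 10% shared windows were called higher, with a median of 1.57, where 35.6% of all genes were called upward. They were 4 core members and Rps19bp1, which is outside the core.

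Among the smallest p-values were those of Rpl10a, Rpl13a, Rpl13, Rpl27 and Rps20. Rpl10a, a protein of the flexible L1 stalk, was at 37.7, 34.9 and 35.3 CPM in hepatocytes and at 4.85, 5.65, 4.13 and 8.39 in liver (log2 2.64 ± 0.23, edgeR adjusted p = 6.08e-06). Rpl13a, known from interferon-controlled translational silencing, was at 549, 389 and 456 CPM against 135, 118, 143 and 147 (log2 1.78 ± 0.16). In both genes every hepatocyte pool was above every liver pool. Rpl13 and Rpl27 rose by 2.08 ± 0.19 and 2.27 ± 0.21 on the log2 scale. The largest differences, 4.06 ± 0.95 for Rpl26 and 2.67 ± 0.98 for Rps2, rested on the uneven 6J pools given above, and the Rps2 call was lost without wild-type hepatocyte pool 1 or 3 (adjusted p = 0.0757 and 0.0617). The smallest estimates were 0.19 ± 0.22 for Rpl9 and 0.27 ± 0.22 for Rpl27a, neither of them called. Without 6J pool 3, Rpl27a was called higher (log2 0.54, adjusted p = 0.027).

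Genes that serve the same machinery were counted beside them, from lists drawn up with earlier results of these data known. Over all genes tested, 35.6% were called upward and 36.4% downward. Of 40 ribosome biogenesis factors 39 rose (median 1.85), and the smallest p was that of the snoRNP protein Nop56, at 120 ± 4.08 CPM against 11.1 ± 1.21 (log2 3.44 ± 0.14). Of 23 TOP-class translation factors 21 rose (median 1.24), among them Pabpc1, the poly(A)-binding protein (log2 2.53 ± 0.18). Rack1, a signalling scaffold on the small subunit, rose by 1.69 ± 0.18 on the log2 scale. Of 75 mitochondrial ribosomal protein genes 36 rose and 2 fell (median 0.43), and 33 of 38 proteasome subunits rose (median 0.85). Respiratory chain and ATP synthase genes went down, with 1 higher and 54 lower of 73 (median -0.61), among them Ndufb10 of complex I (log2 -1.71 ± 0.16). Age, isolation and plating, and sequencing study differ together between the 2 kinds of material and cannot be told apart. In bulk RNA, more cells of a type and more RNA per cell cannot be told apart either. The summed hepatocyte markers were 37180 to 42900 CPM in hepatocytes and 98532 to 105031 in liver. Endothelial markers were 9.25 to 11.5 and 206 to 226 CPM, stellate cell markers 9.19 to 10.8 and 154 to 227, and Kupffer cell markers 31.0 to 48.0 and 139 to 266. Cholangiocyte markers went the other way, at 98.6 to 160 CPM in hepatocytes and 14.3 to 19.8 in liver. Their part in the members' rise was not tested.

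In hepatocytes, the label Tg went with a lower level of 1 member, Rpl22l1. Rpl22l1, a paralog of Rpl22 that is known to take its place in part of the ribosomes, was at 2.52, 2.55 and 2.74 CPM in the pools labelled Tg and at 5.73, 5.36 and 5.85 in wild type. All labelled Tg pools were below all wild-type pools, from 72 to 87 counts against 189 to 214. The same order of pools was seen for 16.5% of all genes tested. The log2 difference was -1.12 ± 0.18 (SE; edgeR adjusted p = 0.0306). With the replicate number as a block it was -1.12 again but no longer called (adjusted p = 0.0822), and it was lost on leaving out any pool but labelled Tg pool 3 (log2 -1.13 to -1.08; adjusted p up to 0.178). Its partner Rpl22 was not called. In the livers Rpl22l1 was not called either, with log2 differences of -0.15 ± 0.30 in the Tg study and -0.39 ± 0.21 in the KO study.

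Among the 79 members tested in hepatocytes, 0 were called higher and 1 lower, against 3.15% of all genes called, 1.53% upward and 1.62% downward. An unadjusted p below 0.05 was seen for 5 members (6.33%, against 28.9% of all genes), and DESeq2 also called 0 higher and 1 lower. The median log2 difference was 0.12 for members and -0.02 for all genes. After Rpl22l1, the smallest p-values were those of Rpl7l1, Rpl23, Rps19bp1, Rpl4 and Rpl28. Rpl7l1, a paralog of Rpl7, was at 164, 150 and 138 CPM in pools labelled Tg and at 122, 110 and 110 in wild type, with no overlap (log2 0.40 ± 0.12, edgeR adjusted p = 0.107). Rpl23, a large-subunit protein that also binds Mdm2, was at 86.9, 92.3 and 93.7 CPM against 134, 116 and 110, again without overlap (log2 -0.40 ± 0.12, adjusted p = 0.111). In all, 3 members lay wholly above and 6 wholly below, where 32.9% of all genes did not overlap (16.5% above and 16.5% below). Rps19bp1 and Rpl7l1 passed when labelled Tg pool 3 was left out (adjusted p = 0.0406 and 0.0261). That fit called 1968 of 14103 genes higher and 2966 lower, against 2 members higher and 1 lower of 79.

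The pools within each hepatocyte group were unlike in measures that go with gene length. Pools 1 and 2 labelled Tg and wild-type pool 1 held 1.40%, 1.39% and 2.01% of counts in mitochondrially encoded RNAs, and the other 3 pools 3.14% to 3.71%. A gene's log2 deviation from the mean of the 3 wild-type pools was set against gene length. Spearman's rho was -0.306, -0.252 and -0.210 in the former and -0.139, 0.181 and 0.032 in the latter. With that reference, the values of pools labelled Tg also hold any length trend that goes with the label. Members are short, with a median deposited length of 1444 bases against 3572 for all genes tested, and their share of counts was highest in the same 3 pools. For genes of 1000 to 2000 bases the median log2 difference was 0.14 over 27 members and 0.20 over all 2208 genes. Under 1000 bases the medians were 0.11 for members and 0.14 for all genes, and from 2000 to 4000 bases 0.03 and 0.07. At 4000 bases or more they were unlike, at 0.19 over 5 members, all above 0, and -0.22 over all 6001 genes. An offset that removes the length trend gave a member median of 0.01 and left Rpl22l1 called. Leaving out the 3 pools with the low mitochondrial share left 1 pool labelled Tg against 2 of wild type, so the spread came from the wild-type pair alone and the lone pool was assumed to vary alike. In that fit Rpl22l1 had a log2 difference of -1.03 (edgeR adjusted p = 0.389) and the member median was 0.01.

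Of the comparison lists, none moved as a group in hepatocytes by count of calls. Proteasome subunits had 0 higher and 1 lower, which was Psmd6 (43.0 ± 3.20 against 73.1 ± 2.44 CPM, log2 -0.77 ± 0.12). The 23 TOP-class translation factors also had 0 higher and 1 lower (median -0.15). Of these factors 0 lay wholly above and 8 wholly below wild type, where 16.5% of all genes lay each way. An unadjusted p below 0.05 was seen for 10 of the factors (43.5%) and 12 of the 38 proteasome subunits (31.6%), against 28.9% of all genes. Mitochondrial ribosomal protein genes had 0 calls of 75 in edgeR, with 24 at an unadjusted p below 0.05 and a median of 0.41. Respiratory chain genes likewise had 0 calls of 73, with 17 such p-values and a median of 0.37, and biogenesis factors 0 of 40, with 16 and a median of 0.28. These are 32%, 23.3% and 40% of the lists, where 28.9% of all genes had such a p.

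In liver, the label Tg went with no call among 73 members tested by edgeR, where 1.33% of all genes were called (0.971% upward and 0.361% downward). DESeq2 called 0 as well, and 2 members had an unadjusted p below 0.05 (2.74%, against 20.3% of all genes). The median log2 difference was -0.01 for members and 0.00 for all genes. Rplp0, the stalk protein that anchors Rplp1 and Rplp2, was at 214, 181, 199 and 185 CPM in pools labelled Tg and at 141, 151, 166 and 179 in 6J. The groups did not overlap, with a log2 difference of 0.29 ± 0.11 (edgeR adjusted p = 0.183). Rps25, known for its role at viral internal ribosome entry sites, was at 16.2, 16.3, 14.4 and 11.0 CPM against 16.7, 20.6, 24.1 and 17.1, also without overlap but by a small margin (log2 -0.44 ± 0.17, adjusted p = 0.185). Rpl10 was the third member whose groups did not overlap, with -0.32 ± 0.15. Thus 1 member lay wholly above and 2 wholly below, where 11.7% of all genes did not overlap (6.41% above and 5.29% below).

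The largest estimates in liver, 0.79 ± 1.17 for Rpl26 and 0.65 ± 0.91 for Rps2, were smaller than their standard errors. Leaving out pools in turn moved Rpl26 between 0.26 and 3.29 and Rps2 between 0.25 and 1.31 on the log2 scale. Kupffer cell markers summed to 229 to 339 CPM in livers labelled Tg and 139 to 266 in 6J, and hepatocyte markers to 66404 to 75442 and 98532 to 105030 CPM. Their part in the members' values was not tested. None of the 38 proteasome subunits, 75 mitochondrial ribosomal protein genes, 72 respiratory chain genes, 40 biogenesis factors or 23 TOP-class factors was called in this comparison by edgeR, with 10, 7, 4, 2 and 3 at an unadjusted p below 0.05 (20.3% of all genes had one).

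In KO livers no member was called among 81 tested by edgeR or 83 by DESeq2, where edgeR called 2.98% of all genes (1.50% upward and 1.48% downward). An unadjusted p below 0.05 was seen in edgeR for 6 members, all lower in KO, which is 7.41% of members against 18.4% of all genes. The median log2 difference of members was -0.05, against -0.01 for all genes. Rps3a1, a small-subunit protein, was at 96.5, 112 and 113 CPM in KO and at 129, 130 and 124 in 6NJ (log2 -0.25 ± 0.09, adjusted p = 0.170). Rps6 was at 113, 119 and 117 CPM against 134, 132 and 141 (log2 -0.22 ± 0.08, adjusted p = 0.175). Rpl5 was at 101, 108 and 109 CPM against 129, 117 and 123 (log2 -0.21 ± 0.08, adjusted p = 0.213). In these 3 genes every KO pool was below every 6NJ pool.

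Groups did not overlap for 10 members, all lower in KO, against 24.3% of all genes without overlap and 12.7% lower. Rpl7, Rpl17 and Rpl10 had log2 differences of -0.19 ± 0.08, -0.23 ± 0.10 and -0.19 ± 0.08. At the other end Rps29 and Rps28 had 0.25 ± 0.24 and 0.20 ± 0.18, where 6NJ pool 3 was low (Rps29 at 72.2 CPM against 144 and 154 in the other pools). Without that pool they were -0.03 and -0.01. The lowest estimates were those of the scarce Rpl9-ps6 (-0.91 ± 0.74) and Rps27rt (-0.72 ± 0.41).

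The comparison lists outside the members gave a few calls in KO livers. Of all genes tested, 2.98% were called there, 1.50% upward and 1.48% downward. Rps27l, a paralog of Rps27 known as a p53 target, fell to 35.7 ± 0.284 CPM from 54.3 ± 9.76 (log2 -0.60 ± 0.12, edgeR adjusted p = 0.0326). Eif6, the factor that keeps unfinished large subunits from joining small ones, fell to 47.7 ± 1.19 CPM from 66.6 ± 9.04 (log2 -0.48 ± 0.10). Of 40 biogenesis factors 0 rose and 1 fell, Eif6. The proteasome subunit Psma4 fell by 0.39 ± 0.08 on the log2 scale, alone among 38. Of 74 respiratory chain genes 3 rose, namely Ndufb3 (0.47 ± 0.10) and Cox8b and Cox6a2, which are muscle forms of cytochrome oxidase subunits. Cox8b was at 9.30 ± 3.81 CPM in KO and 0.520 ± 0.362 in 6NJ. Muscle markers summed to 82.4, 18.4 and 79.2 CPM in the KO pools and to at most 1.20 in 6NJ.

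**Figure D4:**
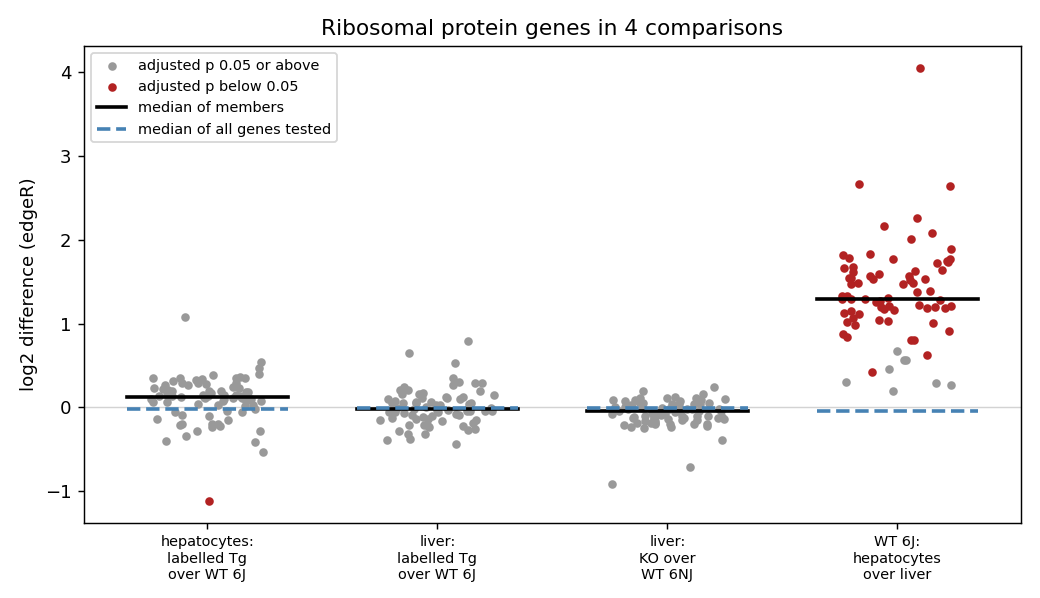
Log2 differences (vertical axis) of the members tested in each of 4 comparisons (horizontal axis), 1 point per gene, coloured by edgeR's adjusted p. Solid bars give the median of members and dashed bars that of all genes. Members lie around 0 in the 3 genotype comparisons, where Rpl22l1 alone is called, and all lie above 0 for hepatocytes over liver, with a median of 1.29.

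Differences between effects were tested directly. The effect of the label Tg in hepatocytes minus that in liver gave 0 calls among 78 members by edgeR, against 0.842% of all genes (0.450% upward and 0.392% downward), with 6 at an unadjusted p below 0.05 (7.69%, against 22.8% of all genes). The median was 0.30 for members and 0.09 for all genes. The smallest p was that of Rpl7l1 (log2 0.61 ± 0.19, adjusted p = 0.112), and Rpl22l1 had -0.78 ± 0.39 (adjusted p = 0.246). The effect of the label Tg in liver minus that of KO also gave 0 calls among 79 members, against 1.02% of all genes, with 2 at an unadjusted p below 0.05 (2.53%, against 16.9% of all genes). Rpl5 had the smallest p there (log2 0.49 ± 0.16, adjusted p = 0.149). The comparison of hepatocytes with liver uses the same wild-type pools as the comparisons by label, so its values are not independent of theirs.

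In the CLIP libraries ribosomal protein genes were close to absent. They held 13 of 80854 counts over 10 libraries, from 0 to 4 counts in a library of 6151 to 10902. In 4 libraries the count was 0, which allows a share of up to 0.0488% in the smallest of them, from counting error alone. The 13 counts fell on 7 members, with 3 each on Rpl10a, Rpl26 and Rps19bp1. No control precipitate was among the libraries, so these counts have no background to be set against.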

How the data were processed

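Per the submitters' processing notes, reads were processed with bcl2fastq, STAR 2.0.4b, Subread and featureCounts 1.45 on build GRCm38. Strand and multi-mapping settings are not given in the sources used here. The authors deposited whole-number counts per gene, CPM (counts scaled to the library total) and RPKM (CPM per kilobase of deposited length) for each library. CPM and RPKM were recomputed from the counts and lengths and matched within 4.9e-10 and 1.6e-10.

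Gene names came from a table of identifiers (40254 of 41388 matched). The members and lists were chosen with earlier results of these data known. Counts were tested with edgeR 4.0.16 (R 4.3.3) quasi-likelihood F-tests, two-sided, after filterByExpr (minimum count 10, minimum total 15) and TMM scaling, with Benjamini-Hochberg adjustment over all genes tested and a threshold of 0.05. Each fit used the libraries of its comparison. DESeq2 1.42.0, RLE scaling, no filter, a single fit over 6 groups, a length-trend offset (lowess span 0.3), a replicate block and leaving out each pool were alternatives. Shares, RPKM levels and CLIP counts were described without a test. Libraries held 17044839 to 37211328 counts, so a member at 1 CPM rests on about 17 to 37 counts. Windows of 36, 50 and 100 bases were searched on the transcribed strand in GENCODE M21 transcripts.

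Members named are the 6 with the smallest p and the 2 with the largest rise and fall in each comparison, the 4 highest and 4 lowest by mean RPKM, 15 named for their role, the paralogs, the 2 smallest p of each list, and A1cf. A gene that this rule names is not reported here. Rps18, Rpl24, Rps29 between the studies, Ndufb3 and the genes whose sequences are printed were singled out after their values were seen.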

Additional observations from a re-analysis of the deposited data

Results flagged for a closer look

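In groups of 4 livers, 48 values were screened for a pool that stands far from the other 3, namely the summed share and the named members with at least 20 counts. Such a gap arises by chance in about 1 group in 20, and 3 values showed it. Rpl26 in 6J liver pool 2 was at 13.2 CPM, where the other pools had 0.513, 0.827 and 0.587. Rplp2 in 6J liver pool 4 was at 37.6 CPM, where the others had 23.8, 25.6 and 25.8. Rpl11 in labelled Tg liver pool 4 was at 2.44 CPM, where the others had 1.53, 1.61 and 1.64.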

How the results depend on the processing

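Calls among members in hepatocytes depended most on the processing. In place of 0 higher and 1 lower, a single fit over all 6 RNA groups gave 7 higher and 1 lower of 80 members. Its median was 0.31 (all genes 0.13), and it called 2715 of 17267 genes higher and 1608 lower. The replicate block gave 0 lower. Leaving out 3 pools (chosen after seeing the data) left 1 labelled Tg pool against 2, so little to test with, and a member median of 0.01. Leaving out a pool in turn gave 0 to 2 higher and 0 to 1 lower. The 2 higher came without labelled Tg pool 3, where 1968 of 14103 genes were called higher and 2966 lower. For hepatocytes over liver, the length-trend offset gave a median of 1.67. Counting only members with few shared windows (4 core members and Rps19bp1) gave 5 of 5 higher and a median of 1.57. Of all genes 35.6% were called upward in the main fit. With the replicate block the same comparison gave 68 members higher. The member share of KO livers was 1.02% without mitochondrial counts and 1.03% with pseudogenes and paralogs, against 0.974%. Rpl9-ps6 in hepatocytes, at 4 to 33 counts a pool, was at -0.42 in that fit of 1 pool against 2, and Rps28 and Rps29 in KO livers turned to -0.01 and -0.03 without 6NJ pool 3 (up to 0.39 and 0.44 without pool 2). Counts of calls in the 2 liver genotype comparisons stayed at 0 under every alternative run, the block included. Same-numbered pools did not deviate together (correlations from -0.485 to 0.67 in hepatocytes), so the numbers were not used to pair them. Rpl26 over liver ranged from 3.75 to 6.61 on leaving out pools. The interaction tests and RPKM levels were run once. Depth limits the members near 0 in the Tg study, which rest on under 10 counts in some pools.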
